A study of Mus musculus with 8 samples.

Results

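The enzymes that make and break down prostaglandins were described in notochord-derived cells (NDCs) of mice at E12.5 and P0. The 10 genes are Ptgs1, Ptgs2, Ptgds, Hpgds, Ptges, Ptges2, Ptges3, Ptgis, Tbxas1 and Hpgd. They were chosen by enzyme function from the 43346 gene identifiers counted, and all 10 had enough reads to pass the filter on low counts. The list was drawn up with the P0 against E12.5 results of these data already known, that of Ptgds among them. Their stage differences are therefore given as descriptions, with a standard error (SE) and without a test. All animals carried Shh-cre and ROSA:YFP, in which Cre under the control of Shh switches on a fluorescent protein in the notochord and its progeny. At embryonic day 12.5, whole notochords were dissected from 4 litters and frozen. At postnatal day 0, nucleus pulposus (NP) cells from lumbar and thoracic discs of 4 litters were loosened mechanically and sorted for YFP. The animals of a litter were pooled into a single sample, so the spread within a stage is the spread between litters. Stage, method of isolation and the region of the spine taken cannot be told apart.

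Prostaglandins are lipid signals made from arachidonic acid, which phospholipases release from membranes. A cyclooxygenase, encoded by Ptgs1 (COX-1) or Ptgs2 (COX-2), converts arachidonic acid to the unstable intermediate PGH2. A terminal synthase then decides the product, which is PGD2 for the enzymes of Ptgds and Hpgds, PGE2 for those of Ptges, Ptges2 and Ptges3, prostacyclin for Ptgis and thromboxane for Tbxas1. Hpgd encodes 15-hydroxyprostaglandin dehydrogenase, which starts the breakdown of PGE2 and related molecules. COX-1 is commonly made at a steady level, whereas COX-2 is induced by cytokines, injury and mechanical load, also in cells of the intervertebral disc. Ptgds is known as a product of the meninges and of several mesenchymal tissues. Hpgds and Tbxas1 are known as genes of macrophages, mast cells and megakaryocytes.

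The 250 bases before the RefSeq start (build GRCm38.p6) are shown for 4 genes that the results below turn on, the main cyclooxygenase gene, both PGD2 synthase genes and the thromboxane synthase gene. Each is written 5′ to 3′ on the strand of its gene, with matches to the motifs searched in capitals.
Ptgs1, chr2:36230176-36230425, plus strand: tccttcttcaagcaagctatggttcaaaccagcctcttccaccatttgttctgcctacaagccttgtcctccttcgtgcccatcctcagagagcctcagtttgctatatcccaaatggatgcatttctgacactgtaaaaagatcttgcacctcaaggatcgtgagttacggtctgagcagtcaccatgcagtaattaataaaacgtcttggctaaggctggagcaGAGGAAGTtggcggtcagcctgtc
Ptgds, chr2:25469750-25469999, minus strand: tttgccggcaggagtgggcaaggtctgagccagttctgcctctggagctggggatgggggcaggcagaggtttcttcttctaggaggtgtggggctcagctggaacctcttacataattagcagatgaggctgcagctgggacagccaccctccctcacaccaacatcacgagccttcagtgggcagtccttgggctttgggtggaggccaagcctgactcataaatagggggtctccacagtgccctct
Hpgds, chr6:65144731-65144980, minus strand: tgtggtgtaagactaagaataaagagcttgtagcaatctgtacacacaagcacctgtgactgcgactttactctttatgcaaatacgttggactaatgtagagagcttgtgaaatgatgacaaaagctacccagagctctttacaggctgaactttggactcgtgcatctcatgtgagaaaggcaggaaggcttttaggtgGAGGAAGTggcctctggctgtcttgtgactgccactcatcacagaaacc
Tbxas1, chr6:38918736-38918985, plus strand: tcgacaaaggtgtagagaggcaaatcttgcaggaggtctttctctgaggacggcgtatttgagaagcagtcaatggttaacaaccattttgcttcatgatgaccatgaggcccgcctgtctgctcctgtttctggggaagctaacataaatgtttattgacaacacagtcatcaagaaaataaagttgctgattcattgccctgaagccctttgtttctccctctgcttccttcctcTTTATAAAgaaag

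The motifs searched on both strands were the PU.1 site GAGGAAGT, the TATA box TATAAA, the GC box GGGCGG and the core TGACG of the cAMP response element. Of the 9 genes with an entry, Hpgds held GAGGAAGT from position -49 and Ptgs1 held it from -24, counted back from the start. Among all 32851 promoters of the same length, 2.44% held it. Both TATAAA matches were in Tbxas1, on opposite strands from -13 and -11 and overlapping each other, and 12.4% of all promoters held this motif. GGGCGG was found in Ptgs2, Ptges, Ptges3 and Hpgd and in 32.7% of all promoters. TGACG was found in none of the 9, against 17.8% of all promoters. None of the 4 motifs was found in Ptgds or Ptges2. The GC content of the printed stretches was 48.0% for Ptgs1, 58.4% for Ptgds, 45.2% for Hpgds and 43.6% for Tbxas1, beside a median of 52.4% over all promoters. These matches describe the letters only. In the Gencode annotation of GRCm38, Ptgs1 (ENSMUSG00000047250.9) spans chr2:36230426-36252272, Ptgds (ENSMUSG00000015090.9) chr2:25466709-25470046, Hpgds (ENSMUSG00000029919.4) chr6:65117293-65144908 and Tbxas1 (ENSMUSG00000029925.9) chr6:38875404-39084585. The printed stretch of Tbxas1 therefore lies inside the Gencode gene, as does that of Ptgds. The part of the Hpgds stretch nearest to the start, with its GAGGAAGT match, also lies inside the Gencode gene.

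Between 4442775 and 8904050 reads per litter were counted on genes, and levels are given as CPM, the counts per 1000000 reads on the genes tested, with library sizes scaled by TMM. Where 4 levels of a stage follow each other, they stand in the order NDP10.2, NPD3, NPD4, NPD9.2 for E12.5 and NPD26, NPD27, NPD28, NPD30 for P0. A level of 3 counts, taken as the detection floor, equals 0.353 to 0.738 CPM and covers counting error only. The E12.5 litters NDP10.2 and NPD9.2 had 72.0 and 71.2 reads assigned to more than 1 gene, and so not counted, per 100 reads counted. The other litters had 22.7 to 35.7. Of the 10 notochord and NP marker genes, Noto was at or under 0.433 CPM in every litter. The 10 summed to 2382 to 6367 CPM at E12.5 and to 8219.7 to 31824 CPM at P0. The members of this list went different ways. Of the 9 tested, Krt19, Cd24a and Car3 were called higher at P0 and Shh and Foxa1 lower. The sum was mostly Car3 at P0 but not at E12.5. Car3 had means of 1569 CPM (E12.5) and 12293 CPM (P0), while Shh had 841 and 5.94 CPM. T, the defining transcription factor gene of the notochord, was at 242 to 942 CPM and 574 to 2323 CPM at these stages. Markers of other cells were present too. A list of 3 embryonic erythroid genes summed to 8120 to 32815 CPM at E12.5, above the notochord and NP sum in each E12.5 litter. At P0 it summed to 2.12 to 7.07 CPM. A list of 6 sclerotome genes summed to 115 to 186 CPM at E12.5 and 3.30 to 13.3 CPM at P0. A list of 8 neural tube genes summed to 111 to 2060 CPM at E12.5, highest in NPD4, and to 355 to 956 CPM at P0. A list of 10 leukocyte genes summed to 61.1 to 119 CPM at E12.5 and to 3005, 3576, 3847 and 319.9 CPM among P0 litters. A list of 8 macrophage genes summed to 59.1 to 117 CPM at E12.5 and to 4712, 5227, 1693 and 61.7 CPM among P0 litters. The litter NPD30 therefore stood apart from the other P0 litters and had the highest notochord and NP sum. In pooled RNA of this kind, fewer cells of a type and less RNA per cell cannot be told apart.

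Ptgs1 was the main cyclooxygenase gene at both stages. Its abundance was 221, 187, 62.3 and 102 CPM among E12.5 litters. At P0 it was 625, 439, 991 and 1626 CPM. Every P0 litter lay above every E12.5 litter, and NPD30, the P0 litter with the lowest leukocyte sum, had the most Ptgs1. The stage means were 143 ± 73.6 CPM (E12.5) and 920.4 ± 523 CPM (P0, both SD, n = 4), a log2 fold change of 2.69 (SE 0.51), and without NPD30 it was 2.22. The summed notochord and NP list was mostly Car3 at P0 but not at E12.5. Its sum was also higher at P0, although 2 of its genes, Shh and Foxa1, were called lower. Per 1000 CPM of that list Ptgs1 amounted to 26.1 to 38.0 CPM at E12.5 and to 49.7 to 78.7 CPM at P0, and these ranges did not overlap. The part of cell number in the Ptgs1 level was not tested.

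Ptgs2, the inducible cyclooxygenase gene, was low throughout. Among E12.5 litters it had 0, 8, 2 and 0 reads. At P0 it reached 7.55, 5.91, 18.5 and 12.6 CPM. All P0 litters lay above all E12.5 litters, 3 of which were at or under the floor of 3 counts. The log2 fold change was 4.53 (SE 0.88), and it was 6.36 without the E12.5 litter NPD3, which held most of the E12.5 reads. Of the summed level of both cyclooxygenase genes per kilobase (kb) of exon, Ptgs1 made up 98.4% to 99.4% in the P0 litters and at least 99.3% in the E12.5 litters. The lowest share was that of NPD28, 98.4% with a 95% Wilson interval of 98.2% to 98.7%, which covers counting error only. Depth limits what can be said of the Ptgs2 level at E12.5.

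**Figure D1:**
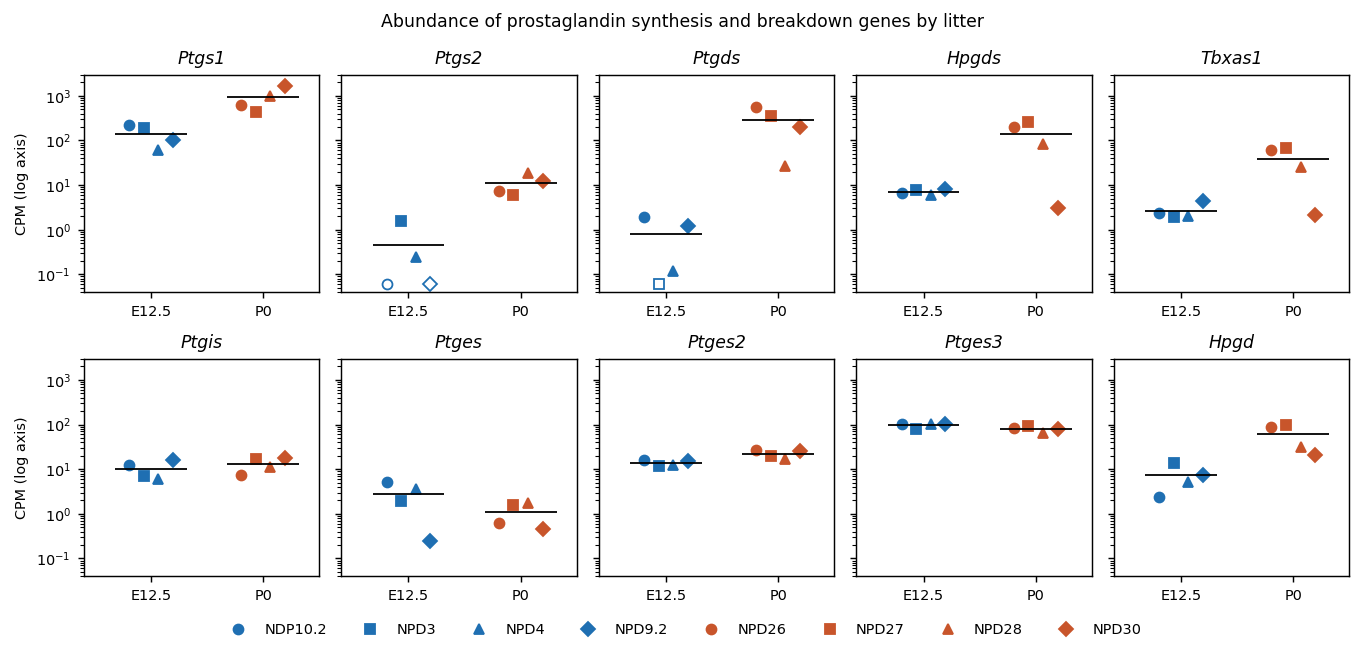
Abundance in CPM (log axis) of the 10 genes in each litter, E12.5 in blue and P0 in orange, with a black line at the mean of the 4 litters and open symbols at the foot of a panel for 0 reads. Ptgs1, Ptgs2, Ptgds, Ptges2 and Hpgd had every P0 litter above every E12.5 litter, and in Hpgds and Tbxas1 the P0 litter NPD30 (diamond) sat at 3.03 and 2.12 CPM, below and among the E12.5 litters.

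Ptgds, which encodes the lipocalin-type PGD2 synthase, had the largest stage difference of the 10 genes. It had 8, 0, 1 and 5 reads among E12.5 litters, and 2 of these litters were at or under the floor. At P0 it was at 561, 361, 26.8 and 198 CPM. Every P0 litter lay above every E12.5 litter, but the P0 litters themselves spanned 20.9-fold, with NPD28 lowest. The stage means were 0.809 ± 0.907 CPM (E12.5) and 287 ± 228 CPM (P0, both SD, n = 4). The log2 fold change was 8.63 (SE 1.18), and it ran from 8.09 to 9.50 when any single litter was dropped. The level in NPD30, the P0 litter with the lowest macrophage sum, was below those of NPD26 and NPD27 and above that of NPD28.

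A list of 5 meningeal marker genes summed to 41.2 to 61.7 CPM at E12.5 and to 32.8 to 67.3 CPM at P0, mostly through Bnc2, and Slc47a1 was at 0 in all E12.5 litters. Among its genes, the transporter gene Slc6a13 was at 17.9, 8.80, 2.59 and 11.8 CPM among P0 litters. Another transporter gene of the list, Slc22a8, was at 8.96, 7.21, 0.824 and 4.85 CPM in the same litters. In both genes NPD26 was highest and NPD28 lowest at P0, as in Ptgds, and both were at or under 6.37 CPM in the E12.5 litters. The other 3 genes of the list had other orders, with Slc47a1 lowest in NPD26 at 0.786 CPM, Slc22a6 highest in NPD27 at 5.91 CPM and Bnc2 highest in NPD30 at 46.2 CPM. A list of 7 osteoblast genes summed to 318 to 664 CPM at P0, highest in NPD30, and to 4.96 to 12.3 CPM at E12.5. Bglap2 and Dmp1 of this list were at 0 in all E12.5 litters. The part of these cell types in the Ptgds level was not tested, and Slc6a13 and Slc22a8 were picked out after their values were seen.

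Hpgds, which encodes the hematopoietic PGD2 synthase, followed another pattern. It was at 6.61, 7.61, 6.04 and 8.11 CPM among E12.5 litters. Its levels among P0 litters were 204, 253, 85.3 and 3.03 CPM. The first 3 of these P0 litters lay above all E12.5 litters and NPD30 lay below all of them, so the stages overlapped. The stage means were 7.09 ± 0.940 CPM (E12.5) and 136 ± 113 CPM (P0, both SD, n = 4), with a log2 fold change of 4.27 (SE 0.97), and without NPD30 it was 4.64. The other P0 litters averaged 59.6-fold more Hpgds than NPD30.

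Tbxas1, the thromboxane synthase gene, had nearly the same profile. Its abundance was 2.36, 1.95, 2.06 and 4.43 CPM among E12.5 litters and 61.0, 67.6, 25.0 and 2.12 CPM among P0 litters. NPD30 lay within the E12.5 range and the other P0 litters above it. The log2 fold change was 3.87 (SE 0.86), and 4.23 without NPD30. The other P0 litters averaged 24.1-fold more than NPD30.

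The macrophage markers moved with both genes. Of the 8 macrophage genes, 7 were tested and all 7 were called higher at P0 in the fit over all genes, beside 16.0% of all genes tested. Csf1r was the only 1 of the 8 in which every P0 litter lay above every E12.5 litter, beside 15.5% of all genes tested. No gene of the list was at 0 in NPD30, in which C1qa, C1qb and C1qc, which encode complement C1q, were at 2.88, 4.85 and 2.12 CPM. Per 1000 CPM of the macrophage list, Hpgds amounted to 43.3, 48.5, 50.4 and 49.1 CPM among P0 litters, within 1.17-fold of each other, whereas Hpgds itself spanned 83.6-fold. At E12.5 Hpgds amounted to 69.2 to 129 CPM on the same scale. The value of NPD30 rests on 20 reads of Hpgds, and the ratios to marker lists were chosen after the values were seen. Per 1000 CPM of the leukocyte list, Hpgds amounted to 67.8, 70.9, 22.2 and 9.48 CPM among P0 litters, a 7.48-fold span. The values below are again per 1000 CPM of the macrophage list. Tbxas1 amounted to 12.9, 12.9 and 14.7 CPM per 1000 CPM in NPD26, NPD27 and NPD28. It amounted to 34.4 CPM in NPD30 and to 31.1 to 37.7 CPM at E12.5. These last values rest on 14 Tbxas1 reads in NPD30 and on 10 to 18 in each E12.5 litter. Ptgds did not follow, with 119, 69.1, 15.8 and 3204 CPM per 1000 CPM among P0 litters.

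Markers of the other cells known for these genes were measured too. The 8 mast cell genes summed to 0.363 to 7.87 CPM at E12.5 and 9.70 to 36.4 CPM at P0, with Mcpt4, Cma1, Tpsb2, Tpsab1 and Fcer1a at 0 in every E12.5 litter. The 8 megakaryocyte and platelet genes summed to 30.6 to 108 CPM at E12.5 and to 67.6 to 387 CPM at P0, with 113 CPM in NPD30. Hpgds and Tbxas1 were higher in NPD28, with 67.6 CPM of that list, than in NPD30. The part of each cell type in the Hpgds and Tbxas1 levels was not tested.

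**Figure D2:**
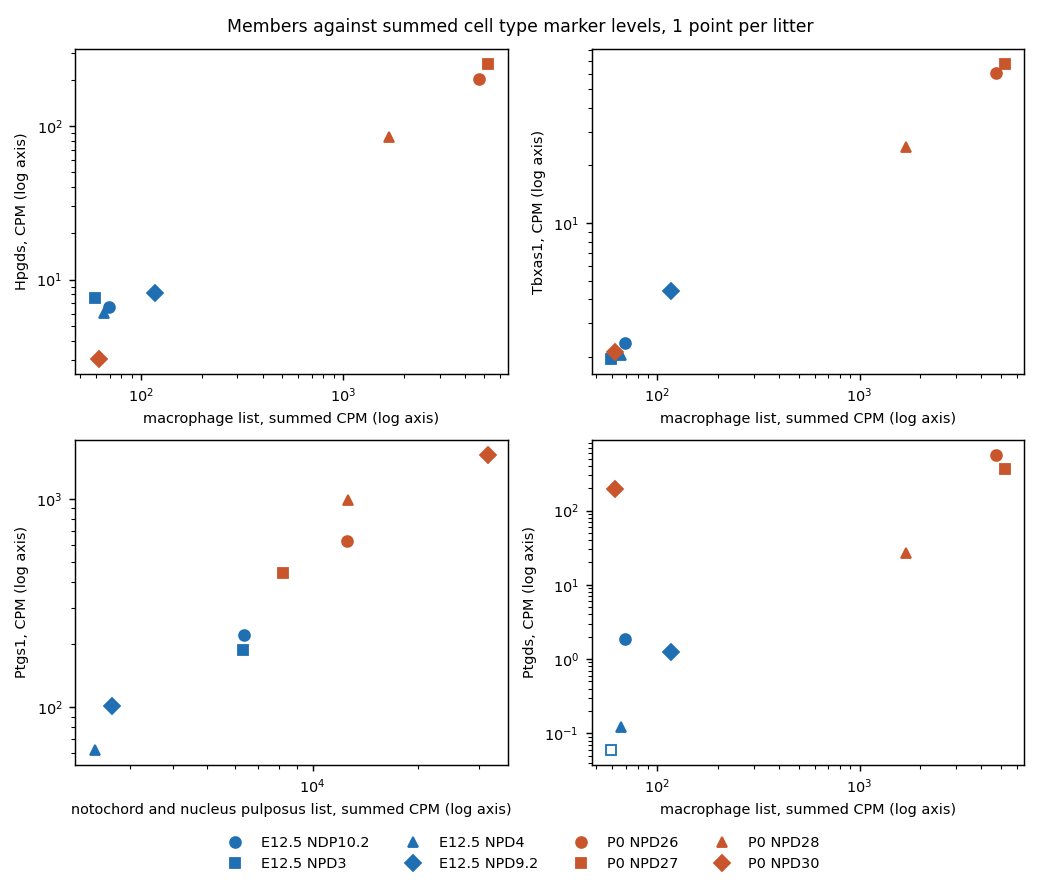
Level of Hpgds, Tbxas1, Ptgs1 and Ptgds (CPM, log axis) against the summed level of a marker list (CPM, log axis), with 1 point for each litter, E12.5 in blue and P0 in orange, and an open symbol for 0 reads. Hpgds and Tbxas1 lay low in NPD30 (orange diamond), where the macrophage list summed to 61.7 CPM, Ptgds was at 198 CPM in that litter, and Ptgs1 was highest there, where the notochord and NP list summed to 31824 CPM.

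Of the genes of PGE2 synthesis, Ptges and Ptges3 overlapped between the stages and Ptges2 did not. Ptges encodes the inducible microsomal PGE2 synthase and was at 5.19, 1.95, 3.63 and 0.246 CPM among E12.5 litters. At P0 it was at 0.629, 1.59, 1.77 and 0.455 CPM. The stages overlapped, the levels were low, and the log2 fold change was -1.29 (SE 0.78). Ptges2, which encodes a membrane-associated form, was at 11.9 to 15.8 CPM at E12.5 and 17.2 to 26.6 CPM at P0, without overlap, and the log2 fold change was 0.69 (SE 0.26). Ptges3 encodes p23, a partner of the chaperone Hsp90 that is also known as the cytosolic PGE2 synthase. It was at 78.4 to 105 CPM at E12.5 and 63.2 to 92.6 CPM at P0, overlapping, and the log2 fold change was -0.30 (SE 0.21). The annotation names 1 pseudogene after Ptges3, so the count of Ptges3 is uncertain where the sequences are alike.

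Ptgis, the prostacyclin synthase gene, was at 12.3, 7.22, 5.92 and 15.7 CPM among E12.5 litters. At P0 it was at 7.39, 16.7, 11.2 and 18.2 CPM. The stages overlapped through most of their range, with a log2 fold change of 0.39 (SE 0.41). An antisense transcript, 1110018N20Rik, shares 6.08% of the exon bases of Ptgis, and reads there cannot be assigned without strand.

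Hpgd, the breakdown enzyme gene, was higher in every P0 litter. It was at 2.36, 14.0, 5.20 and 7.38 CPM among E12.5 litters and 88.7, 98.6, 31.1 and 21.2 CPM among P0 litters. The lowest P0 litter was NPD30, which stayed above the highest E12.5 litter, NPD3. The stage means were 7.25 ± 4.98 CPM (E12.5) and 59.9 ± 39.4 CPM (P0, both SD, n = 4), with a log2 fold change of 3.04 (SE 0.63), and 3.29 without NPD30. Per 1000 CPM of the macrophage list, Hpgd amounted to 18.8, 18.9 and 18.4 CPM in NPD26, NPD27 and NPD28 and to 344 CPM in NPD30. The part of macrophages in the Hpgd level was not tested.

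Levels were compared between genes per kb of exon, and neighbours in the order were taken to differ where their means were further apart than the larger of their SDs (n = 4). At E12.5 Ptges3 led with 44.1 ± 5.80 CPM per kb, followed within its neighbour's spread by Ptgs1 with 36.8 ± 19.0. After a gap beyond the spread came Hpgd with 4.31 ± 2.96, Ptgis with 4.01 ± 1.77 and Ptges2 with 2.75 ± 0.377 CPM per kb, which did not differ as neighbours. Below them, again beyond the spread, were Hpgds with 1.10 ± 0.146, Ptges with 0.70 ± 0.542, Ptgds with 0.491 ± 0.550 and Tbxas1 with 0.297 ± 0.128 CPM per kb. Ptgs2 was last with 0.0984 ± 0.164, beyond the spread from Tbxas1. At P0 Ptgs1 led with 237 ± 135 CPM per kb, followed by Ptgds with 174 ± 138, Ptges3 with 35.8 ± 5.55, Hpgd with 35.6 ± 23.4 and Hpgds with 21.2 ± 17.7. Ptgis had 5.21 ± 1.95, Ptges2 4.43 ± 0.891, Tbxas1 4.28 ± 3.40 and Ptgs2 2.43 ± 1.24 CPM per kb. Among these 9 genes no pair of neighbours differed beyond the spread, which was wide for Ptgs1, Ptgds, Hpgd and Hpgds, and Ptges was last and apart with 0.282 ± 0.169. Counted on the longest transcript in place of all exon bases, Tbxas1 had 8.53 CPM per kb at P0 and 0.591 at E12.5, and Hpgds had 1.82 at E12.5.

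Within the 7 terminal synthase genes, the mixture was led by Ptges3 at E12.5 and, in 3 of 4 litters, by Ptgds at P0. Of their summed level per kb, Ptges3 made up 80.0% to 87.0% in the E12.5 litters and 8.87%, 13.1%, 41.3% and 21.0% among P0 litters. In the same P0 litters Ptgds made up 80.1%, 68.8%, 23.6% and 71.3%, against at most 1.96% at E12.5. Hpgds made up 7.47%, 12.4%, 19.25% and 0.281%. NPD28 was the only P0 litter in which Ptges3 still led. Between the PGD2 synthase genes alone, Ptgds made up 91.5% (95% Wilson interval 91.0% to 92.0%), 84.7% (83.9% to 85.5%), 55.1% (51.4% to 58.7%) and 99.6% (99.4% to 99.8%) of their level per kb among P0 litters. The intervals cover counting error only and are far narrower than the differences between the litters. They also leave out the choice of length. Hpgds has 6425 exon bases and a longest transcript of 3891 bases, and Ptgds has 1649 and 1327. Counted on the longest transcript the Ptgds shares would be lower, so which of these genes led in NPD28 is not settled.

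**Figure D3:**
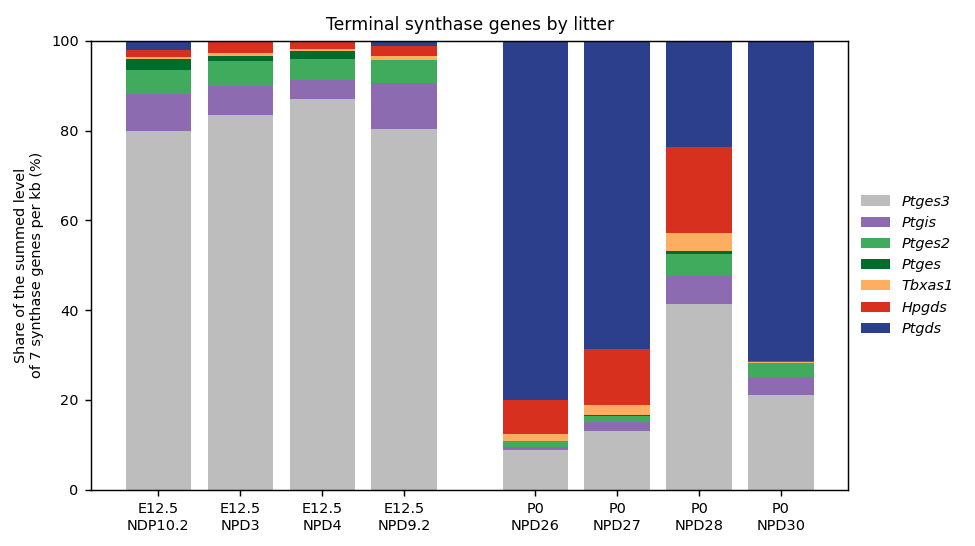
Share (%) of each of the 7 terminal synthase genes in their summed level per kb, with 1 bar for each litter. The grey Ptges3 fills 80.0% to 87.0% of each E12.5 bar, Ptgds (dark blue) fills 68.8% to 80.1% of the P0 bars except NPD28, where it fills 23.6%, and Hpgds (red) is nearly missing from NPD30 at 0.281%.

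In the fit over all 15467 genes tested, 6 of the 10 genes were called at an adjusted p under 0.05 (edgeR's quasi-likelihood test, Benjamini-Hochberg adjustment), all higher at P0. Over all genes tested, 27.9% were called in either direction and 16.0% higher at P0. The 6 were Ptgds, Ptgs2, Hpgds, Tbxas1, Hpgd and Ptgs1. Every P0 litter lay above every E12.5 litter for 5 of the 10 genes, and over all genes tested this was the case for 15.5%, and the reverse for 14.4%. Nothing is read from either count, because the list was drawn up with this contrast known, and Ptgds and Ptgs2 passed the filter through their P0 reads. The calls of Hpgds and Tbxas1 were lost with limma-voom, without a filter on low counts and without the E12.5 litters NDP10.2 and NPD9.2, and that of Hpgd in the last of these fits.

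The other genes of the pathway were taken from 6 lists of 56 genes, of which 55 were matched in the counts and 30 had enough reads to be tested. Of these 30, 13 rose and 0 fell at an adjusted p under 0.05 with edgeR, beside 16.0% of all tested genes that rose and 12.0% that fell. At an unadjusted p under 0.05, 16 were higher and 0 lower. The Wald test of DESeq2 called 12 higher and 0 lower, and limma-voom 11 and 0. The median log2 fold change of the 30, also with Alox12b at its lower bound, was 1.24, against 0.04 over all genes tested. With only the genes that had at least 10 reads in every litter, 5 were called. Nothing is read from these counts or the median, because the lists were chosen with earlier results of these data known. Alox12b, Ltb4r1, Pla2g4f, Ggt5 and Pla2g4e had 0, 5, 5, 10 and 12 reads summed over the E12.5 litters. Alox5, Ptger4 and Cbr2 had 34, 36 and 49. These genes passed the filter through their P0 reads, so a call lower at P0 was hardly possible for them.

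Of the genes that release or supply arachidonic acid, 3 of the 7 tested rose and the other 4, Pla2g4a among them, did not pass the test. Mgll encodes monoacylglycerol lipase, which frees arachidonic acid from an endocannabinoid. It was at 51.4, 30.2, 25.4 and 27.0 CPM among E12.5 litters and 97.3, 80.3, 128 and 166 CPM among P0 litters. All P0 litters were above all E12.5 litters, with a log2 fold change of 1.82 (SE 0.31, edgeR adjusted p = 0.00204). The cytosolic phospholipase genes Pla2g4f and Pla2g4e rose from low levels, with log2 fold changes of 4.38 (SE 0.89, edgeR adjusted p = 0.00447) and 2.99 (SE 0.81, edgeR adjusted p = 0.0185). Their P0 means were 5.61 ± 1.75 and 4.86 ± 1.72 CPM. The classical enzyme gene Pla2g4a had stage means of 10.1 ± 3.77 and 18.9 ± 7.94 CPM, overlapping, with a log2 fold change of 0.91 (edgeR adjusted p = 0.107).

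Among the 6 tested genes for PGF synthases and carbonyl reductases, 2 rose. Prxl2b, which encodes a PGF synthase and is named Fam213b in the annotation, was at 3.51 to 7.78 CPM at E12.5. At P0 it was at 63.2, 45.7, 12.5 and 8.04 CPM, so NPD30 was again nearest to E12.5. Its log2 fold change was 2.44 (SE 0.63, edgeR adjusted p = 0.0154), and it was not called with limma-voom or without the E12.5 litter NPD3, which gave 2.22. The carbonyl reductase gene Cbr2 was at 0.944 to 4.18 CPM at E12.5 and 11.9 to 44.4 CPM at P0, and the log2 fold change was 3.58 (SE 0.57, edgeR adjusted p = 0.00139). Ptgr2, whose enzyme acts on the product of the Hpgd enzyme, was at 9.59 to 17.8 CPM at E12.5 and 28.1 to 43.4 CPM at P0. The log2 fold change of Ptgr2 was 1.37 (SE 0.27, edgeR adjusted p = 0.00364), while Ptgr1, for the related reductase, had 0.30 (edgeR adjusted p = 0.535), and without NPD28 its sign turned, at -0.0576. Neither transport gene passed the test. Slco2a1, for the prostaglandin uptake transporter, had -0.86 (edgeR adjusted p = 0.394), and Abcc4, for an export pump, had 1.59 (edgeR adjusted p = 0.0638). Slco2a1 changed sign, to 0.21, without NDP10.2 and NPD9.2. Abcc4 was called by DESeq2 and limma-voom, without a filter, and without the E12.5 litter NPD4, which gave 2.22.

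Of the 9 prostaglandin receptor genes, 5 were tested and 2 rose. Ptger4 encodes the PGE2 receptor EP4 and was at 0.472, 1.95, 1.69 and 2.46 CPM among E12.5 litters. Its levels among P0 litters were 20.6, 21.8, 16.0 and 7.88 CPM. The stages did not overlap, the log2 fold change was 3.31 (SE 0.51, edgeR adjusted p = 0.00109), and the call held in each of 8 fits that dropped a litter. Ptger1, for EP1, was at 12.8 to 18.2 CPM at E12.5 and at 23.9, 40.4, 57.6 and 17.0 CPM among P0 litters, overlapping through NPD30. Its log2 fold change was 1.19 (SE 0.37, edgeR adjusted p = 0.0333), and dropping single litters kept the call in 2 of 8 fits, so each E12.5 litter as well as NPD27 and NPD28 decided it, with 0.83 to 1.23 in the fits without them. Limma-voom did not call Ptger1 either. Ptger3 for EP3 had 0.32 (edgeR adjusted p = 0.734), Ptgir for the prostacyclin receptor 1.14 (edgeR adjusted p = 0.394) and Tbxa2r for the thromboxane receptor -0.35 (edgeR adjusted p = 0.712). Ptger3 changed sign without NPD4, to -0.0305, and Tbxa2r without NDP10.2 and NPD9.2, to 0.53. The Ptgir value rested on the E12.5 litter NPD4, at 7.37 CPM beside at most 1.23 CPM in the other E12.5 litters. Without that litter the change was 3.27 and was called.

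The receptors of PGD2 were barely detected where Ptgds was high. Ptgdr, for DP1, had 0 reads in all E12.5 litters and was at 0.315, 0.577, 1.65 and 0.606 CPM among P0 litters. Ptgdr2, for the receptor CRTH2, was at or under 0.121 CPM at E12.5 and at 0.118 to 1.73 CPM at P0. Both had too few reads to be tested, as had Ptger2 for EP2, at 0 to 0.738 CPM at E12.5 and 1.06 to 9.54 CPM at P0, and Ptgfr for the PGF receptor, at 0 to 4.25 CPM at E12.5 and 0.706 to 2.58 CPM at P0. At this depth, levels under the floor cannot be told from 0.

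**Figure D4:**
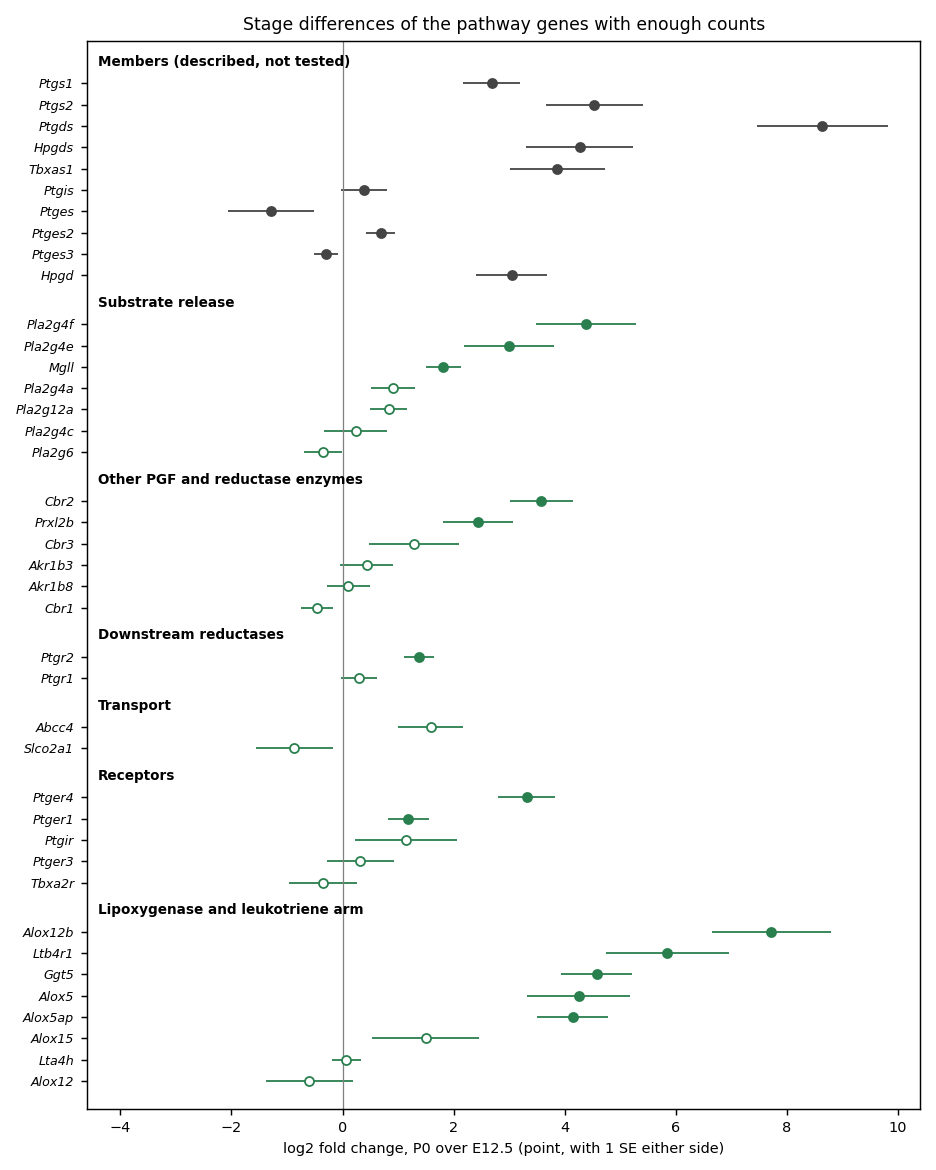
Log2 fold change of P0 over E12.5 with 1 SE either side for the 10 genes described (dark grey, without a test) and the 30 other pathway genes tested (green), the green points filled where the adjusted p was under 0.05. The 13 filled green points lie to the right of 0, with Ptger1 at 1.19, Ltb4r1 at 5.85 and Alox12b further right, at a fitted value that depends on the prior count since it had 0 reads at E12.5.

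The lipoxygenase and leukotriene genes use the same arachidonic acid, and 5 of the 8 tested rose. Nothing is read from this count, because Alox5, Ltb4r1, Ggt5 and Alox12b passed the filter through their P0 reads. Alox5 encodes 5-lipoxygenase and was at 10.9, 13.7, 90.4 and 9.10 CPM among P0 litters and at or under 3.54 CPM at E12.5. Ltb4r1, for the leukotriene B4 receptor, was at 4.09, 4.33, 43.4 and 6.82 CPM in the same P0 litters and at or under 0.492 CPM at E12.5. Both were far higher in NPD28, in which 8 neutrophil genes summed to 6678 CPM, against 764, 802 and 973 CPM in NPD26, NPD27 and NPD30 and 4.01 to 15.8 CPM at E12.5, and the part of neutrophils was not tested. Their log2 fold changes were 4.25 (SE 0.93, edgeR adjusted p = 0.00757) for Alox5 and 5.85 (SE 1.10, edgeR adjusted p = 0.00347) for Ltb4r1, and without NPD28 they were 2.78 and 4.30. Limma-voom and the fit without a filter did not call Alox5. Ggt5, whose enzyme trims leukotriene C4, was at 0.236 to 0.976 CPM at E12.5 and 4.09 to 16.9 CPM at P0, and the log2 fold change was 4.57 (SE 0.64, edgeR adjusted p = 0.000727). Alox12b, a skin lipoxygenase gene, had 0 reads in every E12.5 litter and 2.31 to 5.82 CPM at P0, at least 6.99-fold higher than 3 counts in each E12.5 library (edgeR adjusted p = 0.00175). Alox5ap, the partner of 5-lipoxygenase and the fifth gene called, is named here after its values were seen, with a log2 fold change of 4.14 (edgeR adjusted p = 0.00147).

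The profile of each gene over the 8 litters was also set against all other tested genes of sufficient level, by the root mean square difference of their centred log2 CPM. The nearest to Hpgds was Cx3cr1, the fractalkine receptor gene of macrophages and microglia, with a difference of 0.16, followed by Slc37a2 with 0.30 and Cd83 with 0.33. Tbxas1 was nearest to Ctsb for cathepsin B with 0.29, Sat1 with 0.33 and Slc37a2 with 0.34. Ptgs1 was nearest to Cav2 for caveolin 2 with 0.14, Tmem255a with 0.20 and Ddit4l with 0.25. Cav2 levels among P0 litters were 72.3, 57.1, 99.5 and 214 CPM, in the same order as in Ptgs1. No gene lay close to Ptgds, for which the smallest differences were 1.25 for Gm10801, 1.35 for Mmp13 and 1.36 for Gm10800. Ptgds had 8, 0, 1 and 5 reads among E12.5 litters, so counting error at that stage enters these differences. Hpgd was nearest to Parp9 with 0.44, Cbr2 with 0.50 and the EP4 receptor gene Ptger4 with 0.51. The nearest to Ptgs2 were Gsap with 0.63, Ranbp3l with 0.67 and Fam196b with 0.71. Ptges2 was nearest to Ccdc181 with 0.0919, Capns1 with 0.149 and Ech1 with 0.15, and Ptges3 to Tmem208 with 0.0795, Prkaca with 0.0871 and Eif3g with 0.0977. Ptgis was nearest to Dhrs11 with 0.162, Phlda3 with 0.228 and Ino80e with 0.228. Those of Ptges were a gene without a symbol with 0.603, Gm37983 with 0.651 and Gm16152 with 0.654. These differences describe 8 litters of 2 stages and share the stage contrast.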

How the data were processed

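RNA of 4 E12.5 and 4 P0 litters was sequenced by the authors as single-end reads with the TotalScript kit, aligned with STAR 2.4.0j to GRCm38 and counted with htseq-count on Gencode M4 genes. The deposited values are raw counts, 1 per gene and litter, without normalization. The strand setting is not given in the sources used here, and the submitters' notes also list mm9. Stages were taken from the age labels. Reads off genes stayed out of library sizes. Counts were analysed in R 4.3.3 with edgeR 4.0.16 (TMM, filterByExpr with a minimum count of 10 and total of 15, robust quasi-likelihood test, Benjamini-Hochberg), with DESeq2 1.42.0 and limma 3.58.1 as alternatives. CPM use TMM library sizes of the tested genes, and log2 CPM a prior count of 2. SE is the log2 fold change divided by the square root of F. Exon lengths came from Gencode M21, and 42462 of 43346 identifiers were matched to symbols. The script was tested on simulated data. The genes and lists were chosen with earlier results of these data known. Named were all 10 genes, all receptors, up to 4 called genes per list and direction, and the 3 nearest profiles among genes with a mean log2 CPM of at least 2. Ptgr3 was not matched. Motifs and ratios to marker lists were chosen after the values were seen.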

Additional observations from a re-analysis of the deposited data

Results flagged for a closer look

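In the 20 groups of 4 litters looked at, 1 litter lay far from the others by Dixon's test on log2 CPM. It was the E12.5 litter NPD3 in Ptges3, at 6.30 on the log2 CPM scale, the lowest of its stage. Chance alone flags about 1 group in 20.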

How the results depend on the processing

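The number of the 10 genes called stayed at 6 whichever single litter was dropped, and was 4 with limma-voom, without a filter and with at least 10 counts in every litter, where Ptgds, Ptgs2 and Ptges were not tested. Leaving out the E12.5 litters NDP10.2 and NPD9.2, chosen after the data were seen, gave 3 of the 10 genes (Ptgds, Ptgs1 and Ptgs2), 2581 genes over the whole table in place of 4321, and a log2 fold change of 11.58 for Ptgds. That fit has fewer samples. Pathway genes called higher at P0 numbered 13, from 12 to 16 with a litter left out, and 5 with at least 10 counts in every litter. In that last fit Alox12b, Ltb4r1, Pla2g4f, Pla2g4e, Ggt5, Alox5, Ptger4 and Cbr2 were not tested. Each of these genes had an E12.5 litter with fewer than 10 reads. No pathway gene was called lower with edgeR, DESeq2 or limma-voom, and none was lower at an unadjusted p under 0.05 with edgeR (0 genes). Over the whole table, leaving out a litter gave 3612 to 4529 genes called. Of the values of the 10 genes under these alternatives, 155 moved by less than the SD between litters and 2 by more, the other being Ptgs2 at 6.36 without NPD3. Of those of the pathway genes, 424 kept direction and call, 15 lost the call, 7 gained it and 15, in 9 genes, changed sign without being called. Without NDP10.2 and NPD9.2 these were Pla2g4c at -0.0912, Pla2g6 at 0.33, Akr1b8 at -0.16, Slco2a1 at 0.21, Tbxa2r at 0.53, Lta4h at -0.21 and Alox12 at 0.35. With single litters dropped, Akr1b8 ran from -0.0991 to 0.35, Ptgr1 from -0.0576 to 0.45 (lowest without NPD28), Ptger3 from -0.0305 to 0.72 (lowest without NPD4), Lta4h from -0.15 to 0.15 and Alox12 from -1.39 to 0.0012 (highest without NDP10.2). Limma-voom gave -0.0385 for Akr1b8. The cause was not tested. No paired analysis was possible because no litter number is shared between the stages. Depth limits the E12.5 levels of Ptgds and Ptgs2.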
